A study of Homo sapiens with 28 samples.

Results

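Chromatin accessibility in a Kuramochi population adapted to 10 uM olaparib (T10) was compared with that of untreated cells (C). The comparison takes 2 T10 and 2 C libraries of the 28 samples in the series and covers all 105048 consensus peaks. The deposited peak table holds 20 libraries from 10 populations. They are C, cells adapted to doses from 5 uM (T5) to 320 uM, and cells exposed to 10 uM (P10) or 320 uM for 9 days. T5, T20 and P10 enter here to place T10.

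All groups carry the same BRCA2-mutant genotype and the same epithelial label. Kuramochi is an established line used as a model of high-grade serous ovarian cancer. T10 cells were exposed to the dose they had adapted to and sorted for low CD24 and high CD44, at about 50000 cells per library, and T5 (5 uM) and T20 (20 uM) were made in the same way. C cells were also sorted on CD24 and CD44, but the labels do not state which fraction was kept, and no sort is named for P10. Sorting and adaptation therefore cannot be told apart in T10 against P10, nor in T10 against C as far as the C fraction differed. Whether the replicates came from separate cultures is not stated in the labels, so the p-values measure the spread between replicate libraries, which may be technical. That spread was estimated over all 20 libraries together, not from C and T10 alone.

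Olaparib inhibits PARP enzymes, which mark and help to repair DNA breaks, and cells without working BRCA2 depend on that repair. Resistance in ovarian cancer cells is known to involve restored homologous recombination, drug efflux, and shifts in cell state from epithelial to mesenchymal. ATAC-seq reads where a transposase can reach the DNA, which marks active promoters and enhancers. In a bulk library, fewer cells with an open site and a less open site in every cell cannot be told apart. The number of copies of a region and the accessibility of each copy cannot be told apart either.

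Total counts in peaks were 11347046 and 22218981 in the C libraries and 13143837 and 26503482 in the T10 libraries, so replicate 2 was the deeper library in both groups. Peaks within 1 kb of a RefSeq start site held 26.1% of the counts in C replicate 1, 30.1% in C replicate 2, and 30.1% and 31.1% in T10. Peaks of the label's defining genes were present throughout. PAX8, the transcription factor of the Mullerian lineage, gave 24.2 and 37.0 CPM (a library's counts in the peak, scaled to its total over all peaks) in C and 28.1 and 30.1 CPM in T10. MUC1, an epithelial mucin, gave 91.8 and 87.3 CPM in C and 59.2 and 65.3 CPM in T10. Other epithelial peaks were weaker, with CDH1 at 3.45 and 3.44 CPM and EPCAM at 6.48 and 7.78 CPM in C. No peak was assigned to PTPRC, PECAM1, CDH5 or ALB, which define leukocytes, endothelium and hepatocytes.

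A peak was called gained or lost in T10 at a Benjamini-Hochberg adjusted p under 0.05 (edgeR's quasi-likelihood test) if its log2 fold change also reached 1 in size. T10 gained 8944 peaks (8.51% of 105048) and lost 9688 (9.22%). Together 17.7% of peaks were called. Without T10 replicate 2 the numbers were 5003 gained and 5002 lost.

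The changes lay mostly away from gene starts. Of 14841 peaks within 1 kb of a start site, 567 were gained (3.82%) and 426 lost (2.87%). Of 80168 distal peaks, more than 1 kb from every annotated gene end, 7736 were gained (9.65%) and 8488 lost (10.6%). Distal peaks inside protein-coding genes (19.8% called) and outside them (20.7% called) had similar shares. With all peaks cut into 5 equal bins by mean level, the share called ran from 9.84% in the highest bin to 22.99% in the middle one. The median log2 fold change was 0.02 over all peaks and 0.15 over start-site peaks.

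The single distal peaks with the smallest p changed by large factors. A peak on chromosome 7 (chr7:113796144-113797342), with no gene within 50 kb, stood at 0.90 and 0.94 CPM in C and at 20.6 and 23.5 CPM in T10. Its log2 fold change was 4.57 ± 0.29 (SE; adjusted p = 2.6e-07). P10 stood at 1.46 and 2.14 CPM there, far below both T10 libraries. A peak at chr17:45320373-45321413, 3353 bp from MAP3K14, the kinase that starts non-canonical NF-kB signalling, went from 2.38 and 1.93 CPM to 15.3 and 16.1 CPM (2.88 ± 0.22, adjusted p = 1.4e-06). A peak inside LAMB1, which encodes the laminin beta-1 chain (chr7:107951996-107954070), went from 5.09 and 6.18 CPM to 29.4 and 26.7 CPM (2.30 ± 0.19, adjusted p = 2.5e-06). A peak inside AHNAK, a large scaffold protein (chr11:62480152-62481617), went from 3.69 and 3.06 CPM to 18.4 and 23.3 CPM (2.64 ± 0.25, adjusted p = 6.1e-06). In each case both T10 libraries lay above both C libraries.

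The lost distal peaks were as clear. A peak inside STYXL2 (chr1:167109006-167110161) fell from 25.5 and 20.8 CPM to 1.82 and 1.49 CPM (-3.82 ± 0.32, adjusted p = 2.6e-06). A peak inside TBC1D8, a Rab GTPase-activating protein (chr2:101046761-101048318), fell from 27.0 and 26.4 CPM to 5.46 and 5.67 CPM (-2.26 ± 0.19, adjusted p = 3.1e-06). P10 held both peaks near the C level, at 21.2 and 23.5 CPM in STYXL2 and at 26.1 and 26.0 CPM in TBC1D8. Peaks in gene-poor sequence at chr6:163943421-163944640 (-2.81 ± 0.21) and chr1:38588678-38589954 (-2.73 ± 0.22) were also lost. The former was already low in P10, at 6.62 and 5.62 CPM, against 22.1 and 25.7 CPM in C and 3.498 and 3.323 CPM in T10.

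Each protein-coding gene was represented by 1 peak, the strongest within 1 kb of a listed RefSeq start, or of a gene end where no start was listed. This gave 14800 genes, 11961 placed by start and 2839 by gene end. T10 gained the peaks of 399 genes (2.7%) and lost those of 231 (1.56%), together 4.26%. The median over all genes was 0.17. It was 0.01 without C replicate 1, the library with the lowest start-site share, and 0.37 without C replicate 2.

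The largest rises were led by a pair of zinc-finger genes, ZNF66 and ZNF85, described below with their cluster. RCOR2, a corepressor of the CoREST family, is represented by a peak at its gene end that also lies in MARK2 (chr11:63909314-63911070). It read 8.95 and 6.32 CPM in C and 40.6 and 39.3 CPM in T10 (2.40 ± 0.22, adjusted p = 5.9e-06). PTPRE, a receptor-type tyrosine phosphatase (chr10:128047035-128048862), read 5.42 and 2.88 CPM in C and 21.13 and 25.02 CPM in T10 (2.52 ± 0.27, adjusted p = 1.4e-05). LOC124904075, an uncharacterised gene whose peak lies in RPTOR on chromosome 17, read 4.19 and 2.50 CPM in C and 18.7 and 19.7 CPM in T10 (2.56 ± 0.24, adjusted p = 6.1e-06). In these 3 genes the T10 libraries lay closer together, in proportion, than the C libraries, of which replicate 1 was the higher. The groups did not overlap, which the naming rule requires. AMTN, an enamel protein (2.76 ± 0.53), LRRC70, a leucine-rich repeat protein encoded within IPO11 (2.63 ± 0.53), and TUSC3, a subunit of the oligosaccharyltransferase complex (2.48 ± 0.54), rose from low levels. Their adjusted p were 0.0011, 0.0016 and 0.0027, and no C library passed 0.985 CPM in any of them.

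**Figure D1:**
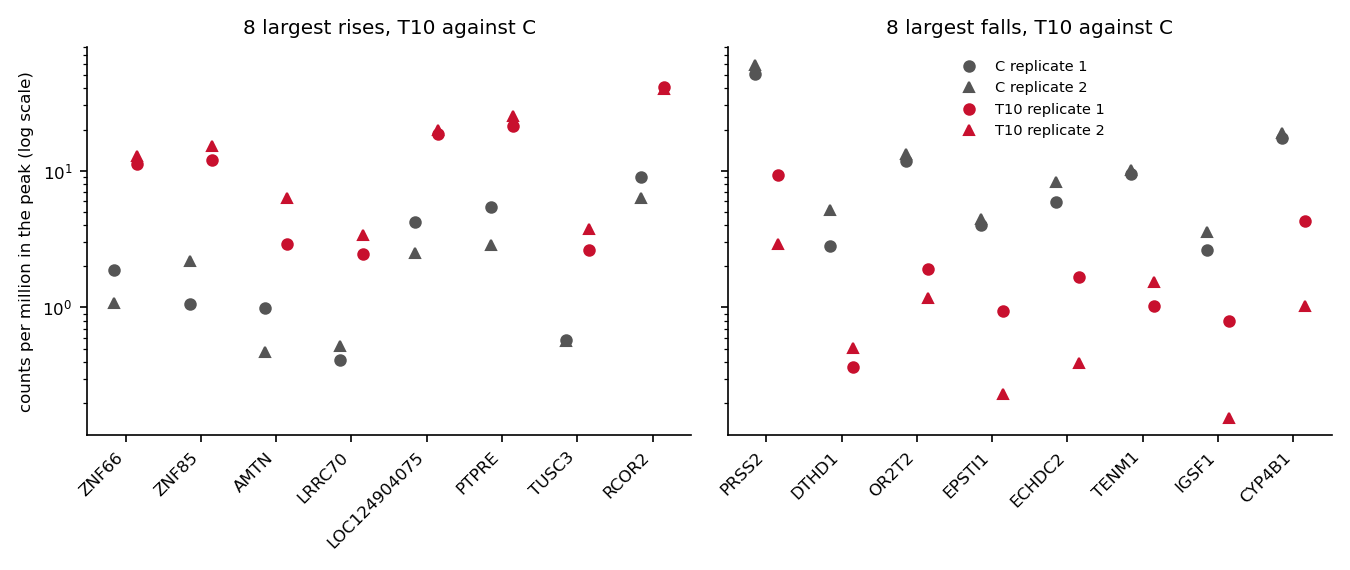
CPM in the peaks of the 8 genes with the largest rises and the 8 with the largest falls in T10 against C, on a log axis, with 1 point per library (grey C, red T10, circle replicate 1, triangle replicate 2). The groups do not overlap for any of the 16 genes, which the naming rule requires. Among the falls, T10 replicate 2 is the lower T10 library for PRSS2, OR2T2, EPSTI1, ECHDC2, IGSF1 and CYP4B1. It is the higher one for DTHD1 and TENM1.

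The largest falls included PRSS2, a trypsinogen gene (chr7:142770706-142772902). Its peak fell from 51.4 and 59.6 CPM in C to 9.26 and 2.93 CPM in T10 (-3.25 ± 0.42, adjusted p = 4.8e-05). PRSS2 has near-identical neighbours, so the assignment of its reads is uncertain, and the same holds for the olfactory receptor gene OR2T2 (-3.06 ± 0.39). TENM1, a teneurin adhesion receptor on chromosome X (chrX:125204886-125206522), fell from 9.52 and 10.1 CPM to 1.02 and 1.53 CPM (-2.90 ± 0.34, adjusted p = 2.3e-05). CYP4B1, a cytochrome P450 (chr1:46798675-46799920), fell from 17.4 and 18.9 CPM to 4.30 and 1.02 CPM (-2.86 ± 0.52, adjusted p = 6.5e-04). DTHD1, a death-domain gene, fell by 3.14 ± 0.58 on the log2 scale. The calls of EPSTI1, an interferon-inducible gene (-2.98 ± 0.66), ECHDC2, a mitochondrial hydratase-like gene (-2.91 ± 0.65), and IGSF1, an immunoglobulin superfamily gene (-2.86 ± 0.64), rested on 1 library. Without T10 replicate 2 they stood at -2.15, -2.08 and -1.96 and were not called.

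The gene lists covered 543 measured genes in 26 lists. Members of the zinc-finger list made up 22 of the 37 gained genes. Outside it, 15 of 503 genes were gained (2.98%) and 10 lost (1.99%), close to the shares over all genes. No member was called in the lists of AP-1 and immediate early genes, p53 targets, antigen presentation, glycolysis and hypoxia, cholesterol and fatty acid synthesis, YAP and TEAD targets, or constitutive promoters. These 7 lists had medians between 0.03 and 0.33. Without C replicate 2 the count of gained list genes was 52 in place of 37, and cholesterol synthesis then had 2 gained members.

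**Figure D2:**
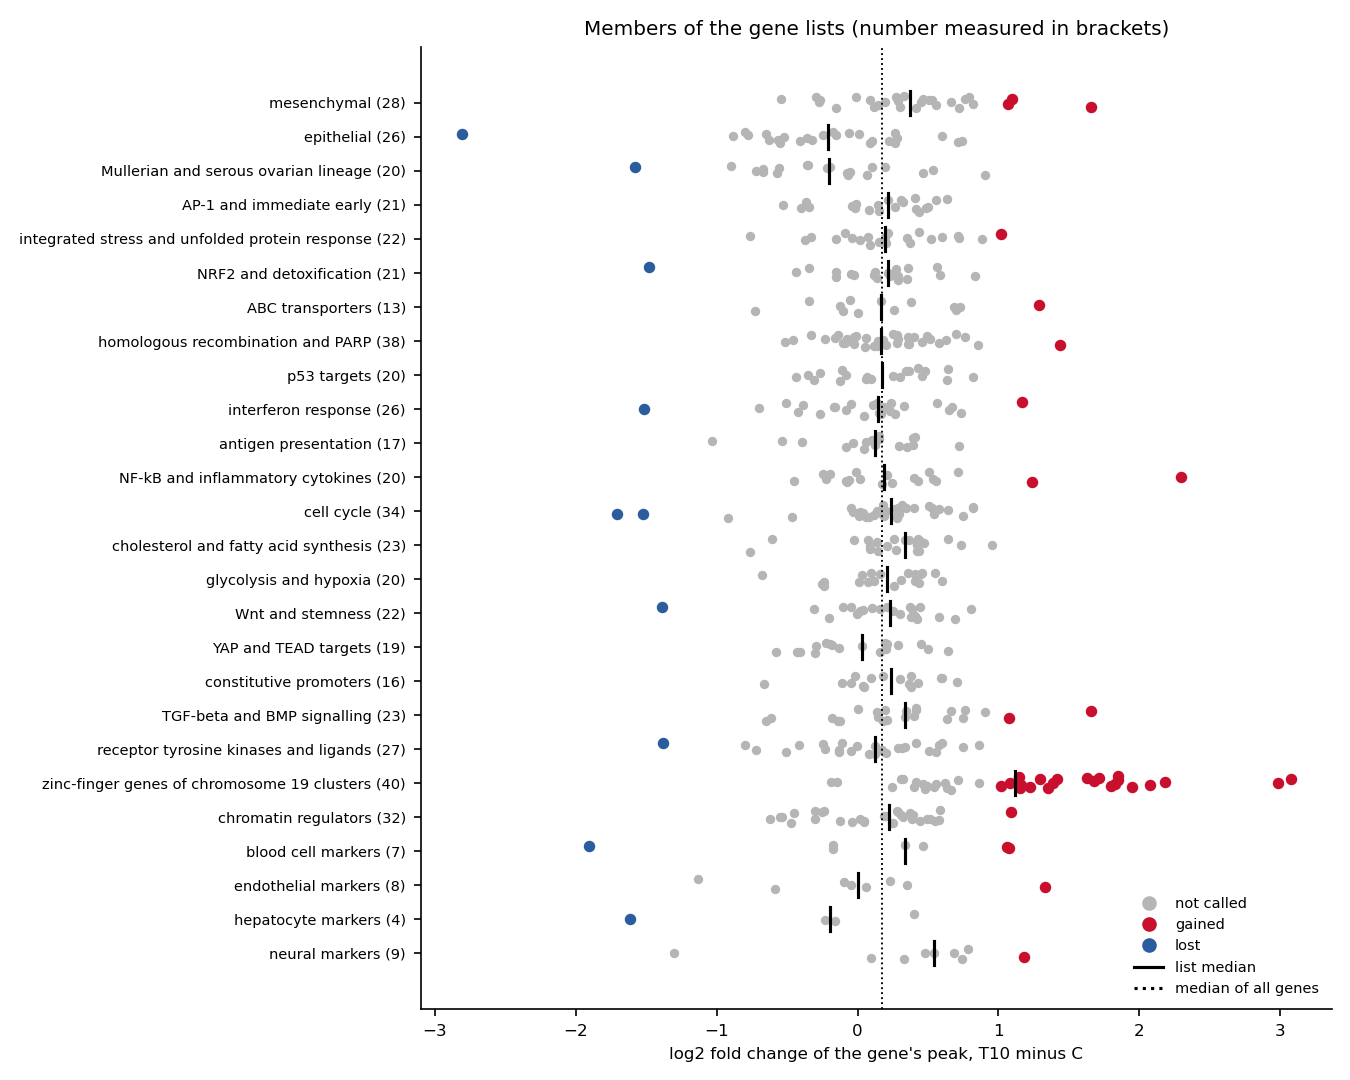
Log2 fold change of each measured member of the 26 gene lists, T10 minus C (horizontal axis), with gained genes in red, lost genes in blue and genes not called in grey. Short black bars mark list medians and the dotted line the median of all genes, 0.17; the zinc-finger list, with a median of 1.12, is the one whose median passes 1.

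Zinc-finger genes of the KRAB type sit in clusters on chromosome 19 and encode DNA-binding repressors, many of which silence transposable elements. The 40 measured members comprised 22 gained, 0 lost and 18 not called. The list was chosen with earlier results of these data known, so its count is not independent evidence. The clusters differed. In the 16 members on the long arm, between 50 and 55 Mb, every gene was gained, with log2 fold changes from 1.02 (ZNF331) to 2.07 (ZNF665) and a median of 1.40. In the 22 members between 20 and 25 Mb on the short arm, 6 were gained and the median was 0.55, and neither of the 2 members just below 20 Mb was.

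The long-arm genes rose together with their surroundings. The 5 Mb window holding them had 109 of 211 peaks gained (51.7%), and its summed signal went from 1901 and 2448 CPM in C to 4059 and 4818 CPM in T10. P10 stood at 1988 and 2051 CPM there. The window offset is an alternative fit that takes out, in each library, the median shift of each 5 Mb window. With it the median of the long-arm members was 0.34, and 6 of the 40 list members were gained in place of 22.

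The short-arm genes that changed stood out from their neighbours. ZNF66 (chr19:20776046-20777189) read 1.89 and 1.08 CPM in C and 11.2 and 12.8 CPM in T10 (3.07 ± 0.29, adjusted p = 6.1e-06). ZNF85 (chr19:20922716-20924017) read 1.07 and 2.17 CPM in C and 11.9 and 15.1 CPM in T10 (2.98 ± 0.34, adjusted p = 1.8e-05). Both genes kept their calls with the window offset, at 2.72 and 2.67. ZNF737 (2.18), ZNF90 (1.85), ZNF682 (1.797) and ZNF486 (1.08) were the other gained members, while ZNF43, ZNF91 and ZNF93 in the same cluster stood at 0.46, 0.62 and 0.48 and were not called. P10 held ZNF66 at 3.26 and 3.53 CPM and T5 at 6.22 and 6.54 CPM, both between C and T10.

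The 4 short-arm promoters with the largest gains among those with a listed start are shown because they resemble each other. Each line gives the 150 bases before the start site, 5′ to 3′ on the gene's strand (RefSeq, GRCh38.p14), with CCAAT boxes in capitals. ZNF66 lies at chr19:20776154-20776303 and ZNF85 at chr19:20923101-20923250, on the plus strand. ZNF737 lies at chr19:20565782-20565931 on the minus strand and ZNF90 at chr19:20077850-20077999 on the plus strand.
ZNF66: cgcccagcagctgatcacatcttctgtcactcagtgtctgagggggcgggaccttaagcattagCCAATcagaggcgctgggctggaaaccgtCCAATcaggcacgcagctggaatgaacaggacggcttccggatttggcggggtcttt
ZNF85: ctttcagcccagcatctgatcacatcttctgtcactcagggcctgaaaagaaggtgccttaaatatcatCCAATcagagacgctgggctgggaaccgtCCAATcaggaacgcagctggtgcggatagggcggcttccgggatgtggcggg
ZNF737: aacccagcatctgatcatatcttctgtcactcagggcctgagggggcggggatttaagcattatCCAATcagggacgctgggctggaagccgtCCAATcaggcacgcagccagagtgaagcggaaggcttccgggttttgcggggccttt
ZNF90: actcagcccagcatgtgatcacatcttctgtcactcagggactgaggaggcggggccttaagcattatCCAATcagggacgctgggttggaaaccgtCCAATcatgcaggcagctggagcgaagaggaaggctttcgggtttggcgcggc
Pairs of these sequences were between 74.2% and 85.3% identical in a global alignment. Whether any reads were shared between these genes was not tested, so the value of each single gene keeps that uncertainty. Each of the 4 sequences held 2 matches to CCAAT on either strand. More than 1 match was found in 13.1% of the 11961 promoters (300 bases each) with a peak, in 14 of the 36 list members with a promoter in the table (38.9%), and in 5 of the 20 gained ones (25%).

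**Figure D3:**
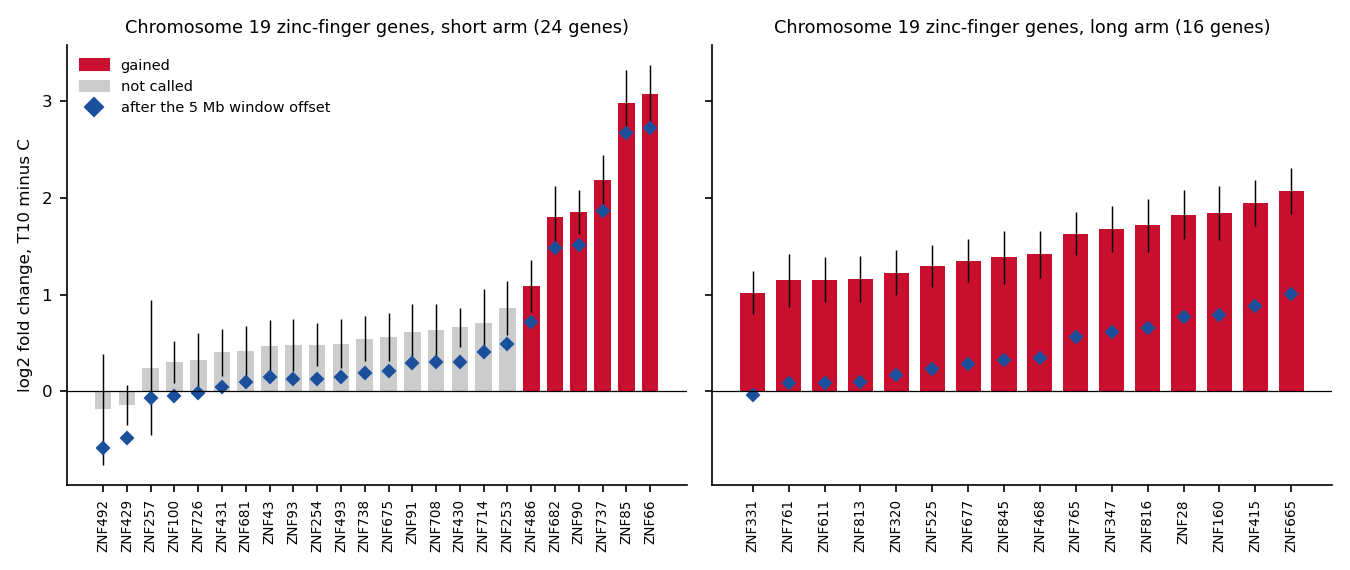
Log2 fold change, T10 minus C, of the 24 short-arm and 16 long-arm members of the zinc-finger list (bars, with standard errors; red gained, grey not called) and the same genes after the 5 Mb window offset (diamonds). On the long arm all 16 bars pass 1 and the diamonds lie between -0.04 and 1.00; on the short arm ZNF66 and ZNF85 stay above 2 in both.

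Mesenchymal genes moved little beside 3 members. Of 28 measured genes 3 were gained, 0 lost and 25 not called, and 22 of 28 had a value above 0 (median 0.37). COL1A1, a type I collagen chain (chr17:50199976-50201645, at a gene end), read 11.5 and 18.1 CPM in C and 30.5 and 33.2 CPM in T10 (1.10 ± 0.19, adjusted p = 4.1e-04). COL1A1 was not called without C replicate 1 (0.82), with the trended offset (0.98) or with the window offset (0.70). FN1, fibronectin, was also gained, from 5.58 and 5.38 CPM in C to 10.9 and 12.0 CPM in T10 (1.07 ± 0.20, adjusted p = 0.000945). The classical transcription factors of the programme were not called, with ZEB1 at 0.14, SNAI1 at 0.20, SNAI2 at 0.45 and TWIST1 at -0.27, and VIM stood at 0.79.

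TGF-beta and BMP signalling had 2 gained members of 23 (median 0.34). SMAD3, a receptor-activated mediator of TGF-beta, read 13.5 and 16.6 CPM in C and 28.9 and 34.9 CPM in T10 (1.08 ± 0.22, adjusted p = 0.0018). Its call was near the fold threshold and was lost without C replicate 1 (0.94), without T10 replicate 2 (0.93), and with start-site scaling (0.97), the trended offset (0.94) and the window offset (0.92).

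Epithelial genes had 1 lost member of 26 (2 without C replicate 1), 0 gained and a median of -0.21. It was EHF, an ETS factor of epithelial cells (chr11:34630461-34633078), which fell from 49.0 and 43.2 CPM in C to 6.92 and 6.25 CPM in T10 (-2.81 ± 0.34, adjusted p = 3.2e-05). T5 stood between, at 18.72 and 15.96 CPM, T20 below at 5.24 and 3.36 CPM, and P10 at 26.6 and 26.7 CPM. Adhesion and keratin genes were not called. Among them CDH1 (-0.15), EPCAM (-0.24), KRT8 (-0.33) and DSP (-0.89) stood below 0, and CLDN4 (0.74), KRT18 (0.71) and CLDN7 (0.60) above it. In the whole list 10 of 26 values lay above 0 and 16 below. The EHF promoter is shown as the start of the gene with the deepest epithelial fall. Its 150 bases before the start (chr11:34632416-34632565, plus strand, RefSeq, GRCh38.p14) hold 1 match to the SOX core ACAATG, here on the reverse strand and in capitals.
EHF: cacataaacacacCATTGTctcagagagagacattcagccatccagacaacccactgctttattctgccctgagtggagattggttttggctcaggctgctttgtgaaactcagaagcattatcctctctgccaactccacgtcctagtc
Over both strands the SOX core occurred in 23 of 178 promoters of lost genes (12.9%), in 21 of 297 of gained genes (7.07%) and in 5.80% of all 11961 with a peak. It occurred in 10.8% of all 35116 promoters in the table.

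The list of Mullerian and serous ovarian lineage genes had 1 lost member of 20, 0 gained and a median of -0.21. MSLN encodes the tumour antigen mesothelin and is represented by a gene-end peak (chr16:760138-762602). It fell from 41.0 and 61.2 CPM in C to 16.6 and 17.6 CPM in T10 (-1.58 ± 0.24, adjusted p = 1.8e-04), and P10 stayed at 46.8 and 44.2 CPM. The lineage factors WT1 (-0.90, adjusted p = 0.0026) and SOX17 (-0.67, adjusted p = 0.027) did not reach the fold threshold, and PAX8 stood at -0.08. LHX1 lay on the other side at 0.90 (adjusted p = 0.0078), also short of the threshold. Of the 20 members 6 had a value above 0 and 14 below. With the window offset 5 members of this list were lost and 1 gained, and without C replicate 1 the lost members numbered 3.

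The sort markers themselves were not called. CD24, the surface protein selected against, read 10.42 and 14.99 CPM in C and 9.33 and 7.35 CPM in T10 (chr6:106973435-106975867; -0.63 ± 0.21, adjusted p = 0.033). CD44, the hyaluronan receptor selected for, read 14.6 and 13.8 CPM in C and 15.7 and 18.6 CPM in T10 (chr11:35138481-35140520; 0.28 ± 0.23, adjusted p = 0.40). CD24 stood at 19.1 and 17.9 CPM in P10, above both C libraries.

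Homologous recombination and PARP genes had 1 gained member of 38, 0 lost and a median of 0.16, the level of all genes. The gained member was SLFN11, a helicase-like factor known to sensitise cells to PARP inhibitors (chr17:35373704-35374730). It read 1.97 and 1.79 CPM in C and 5.46 and 4.73 CPM in T10 (1.44 ± 0.40, adjusted p = 0.014). The call was lost without C replicate 2 (1.36), without T10 replicate 1 (1.34) and with the window offset (1.04). BRCA2, the gene mutated in this line, read 29.5 and 39.8 CPM in C and 25.7 and 29.4 CPM in T10, so the higher T10 library lay just below the lower C library (-0.33 ± 0.22, adjusted p = 0.29). The BRCA2 peak is shared with the neighbouring gene ZAR1L. PARP1, the drug's main target, read 20.9 and 27.6 CPM in C and 14.6 and 20.7 CPM in T10 (-0.46 ± 0.22, adjusted p = 0.13). BRCA1 (0.70) and TP53BP1 (0.51) were not called.

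Drug handling was represented by the ABC transporter and NRF2 lists. Of 13 ABC transporters 1 was gained, 0 were lost and the median was 0.17. ABCB1, the multidrug efflux pump that exports olaparib, read 4.35 and 2.88 CPM in C and 10.2 and 7.27 CPM in T10 (chr7:87599616-87601257; 1.29 ± 0.25, adjusted p = 0.0011). T5 read 6.69 and 4.90 CPM, T20 12.3 and 12.5 CPM, and P10 6.04 and 5.49 CPM. The call was lost without C replicate 2 (0.99) and with the window offset (0.68), and the window from 85 to 90 Mb had a median of 0.61. Of 21 NRF2 and detoxification genes 1 was lost and 0 gained (median 0.21). It was UGT1A6, a glucuronosyltransferase, at 10.0 and 10.2 CPM in C and 3.93 and 3.36 CPM in T10 (-1.48 ± 0.38, adjusted p = 0.0084; -1.36 and not called without T10 replicate 2). UGT1A6 lies inside a locus of overlapping UGT1A genes, so the peak cannot be given to it alone.

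The ABCB1 start is shown because its promoter carries an AP-1 match. The 250 bases before the start (chr7:87600885-87601134, minus strand, RefSeq, GRCh38.p14) are printed 5′ to 3′ with the match to TGANTCA in capitals.
ABCB1: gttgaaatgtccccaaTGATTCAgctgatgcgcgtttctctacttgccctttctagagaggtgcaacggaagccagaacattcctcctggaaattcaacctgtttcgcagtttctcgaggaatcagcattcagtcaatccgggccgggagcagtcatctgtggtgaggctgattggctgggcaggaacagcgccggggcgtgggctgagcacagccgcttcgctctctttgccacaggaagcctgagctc
An AP-1 match occurred in 34 of 297 promoters of gained genes (11.4%), in 14 of 178 of lost genes (7.87%) and in 4.24% of 11486 promoters of genes not called. It occurred in 7.71% of all 35116 promoters in the table. The gained promoters also differed in base composition. Their median GC content was 62.7%, against 60.7% in lost and 66.3% in other promoters, and the median observed over expected CpG was 0.68 in gained, 0.39 in lost and 0.85 in other promoters. Matches rich in GC followed this order, with the GC box GGGCGG in 55.2% of gained, 46.6% of lost and 72.9% of other promoters. The ETS match CCGGAAGT occurred in 4.04%, 1.69% and 8.20%. These shares are descriptions of letters, and base composition differs between the sets.

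Inflammatory genes had 2 gained members of 20 in the NF-kB list (4 without C replicate 1), 0 lost and a median of 0.19. TLR4, the lipopolysaccharide receptor (chr9:117703353-117705578), read 2.71 and 1.37 CPM in C and 8.67 and 10.4 CPM in T10 (2.30 ± 0.32, adjusted p = 8.6e-05). CXCL1, a neutrophil chemokine with close copies next to it (chr4:73867924-73869898), read 8.78 and 7.17 CPM in C and 16.1 and 21.2 CPM in T10 (1.24 ± 0.21, adjusted p = 4.3e-04). With the window offset CXCL1 stood at 0.96 and was not called. The regulators NFKB1 (-0.25), RELB (0.02) and NFKBIA (-0.19) were not called. In the interferon list 1 of 26 was gained and 1 lost (median 0.15). IFI27, an interferon-induced mitochondrial protein, fell from 10.2 and 11.2 CPM to 4.01 and 3.52 CPM (-1.52 ± 0.23, adjusted p = 1.6e-04). OAS1, an antiviral sensor of double-stranded RNA, rose from 3.53 and 3.39 CPM to 6.92 and 8.56 CPM (1.17 ± 0.31, adjusted p = 0.010). The call of OAS1 was lost without C replicate 2 (1.14), without T10 replicate 2 (1.00) and with the window offset (0.93).

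Cell cycle genes had 2 lost members of 34 and 0 gained (median 0.23), and both are encoded side by side on chromosome 9. Which product of CDKN2A its peak serves was not tested. CDKN2A (chr9:21993963-21997043) fell from 43.0 and 64.7 CPM in C to 16.2 and 16.8 CPM in T10 (-1.71 ± 0.36, adjusted p = 0.0021). CDKN2B (chr9:22008262-22009728) fell from 32.9 and 60.2 CPM to 15.6 and 16.9 CPM (-1.52 ± 0.35, adjusted p = 0.0040; -1.02 and not called without C replicate 2). P10 read 48.9 and 48.0 CPM at CDKN2A. Their 5 Mb window had a median of -1.15, the lowest of 561, and with the window offset CDKN2A stood at -0.66 and CDKN2B at -0.48, neither called.

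Other lists held single called genes. PROM1, the stem cell marker CD133, fell by 1.39 ± 0.29 on the log2 scale (1 lost of 22 in the Wnt and stemness list, median 0.23). GAS6, the ligand of the AXL receptor (chr13:113862268-113864200), fell from 5.83 and 4.67 CPM to 2.19 and 1.84 CPM (-1.39 ± 0.35, adjusted p = 0.0075) and was the 1 called member of 27 receptor tyrosine kinase genes (median 0.12). The GAS6 call was lost without T10 replicate 2 (-1.25) and with the window offset (-0.58). ERN1, the IRE1 sensor of unfolded proteins, was gained at 1.02 ± 0.21 (1 of 22, median 0.20). This call sat on the fold threshold and was lost without C replicate 1 (0.90), without T10 replicate 2 (0.92), with the window offset (0.48), and with DESeq2 (1.00), start-site scaling (0.91) or the trended offset (0.90). KDM6B, a histone H3K27 demethylase whose peak also lies in DNAH2 (chr17:7833643-7837197), read 64.3 and 93.4 CPM in C and 166 and 170 CPM in T10 (1.09 ± 0.21, adjusted p = 9.3e-04). It was 1 of 32 chromatin regulators called (median 0.22). KDM6B was not called without C replicate 1 (0.85), with start-site scaling (0.99), the trended offset (0.90) or the window offset (0.30).

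Among markers of other cell types, 3 of 7 blood, 1 of 8 endothelial, 1 of 9 neural and 1 of 4 hepatocyte markers with a peak were called, against 4.26% of all genes. Of 7 blood cell markers with a peak, ITGB2 (1.08 ± 0.22) and CD68 (1.06 ± 0.21) were gained and CD14 (-1.91 ± 0.49) was lost. CD14 read 13.5 and 13.4 CPM in C and 6.05 and 1.56 CPM in T10, and no blood cell marker was lost without T10 replicate 2. The CD68 peak also lies in EIF4A1. CD68 was not called without C replicate 2 (0.85), without T10 replicate 1 (0.78), or with start-site scaling (0.93), the trended offset (0.86) or the window offset (0.28). ITGB2 was not called without C replicate 2 (0.83), without T10 replicate 2 (0.94), or with start-site scaling (0.94) or the trended offset (0.95). EMCN, an endothelial sialomucin, was the 1 gained of 8 endothelial markers (1.33 ± 0.32; 1.09 and not called without T10 replicate 2). SNAP25, a synaptic SNARE protein, was the 1 gained of 9 neural markers (1.18 ± 0.18; 0.95 and not called with the window offset). APOA1, an apolipoprotein, was the 1 lost of 4 hepatocyte markers (-1.61 ± 0.38; -1.29 and not called without T10 replicate 2). Their part in the other results was not tested.

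Changes were unevenly spread over chromosomes. On chromosome 1, 2324 of 11175 peaks were lost (20.8%) and 240 gained (2.15%), with a median log2 fold change of -0.55. Chromosome 13 had 17.1% lost (median -0.45) and chromosome 9 14.3% (median -0.15). Chromosome 17 had 582 of 3880 peaks gained (15%) and 2.55% lost (median 0.50), and chromosome 14 had 14.8% gained (median 0.32). The share of all counts on chromosome 1 was 14.1% in both C libraries, 9.85% and 9.53% in T10, 11.8% in both T5 libraries, 8.62% and 8.03% in T20, and 13.3% and 13.4% in P10. On chromosome 17 it was 3.33% and 3.38% in C and 4.848% and 4.798% in T10, and neither pair of groups overlapped.

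**Figure D4:**
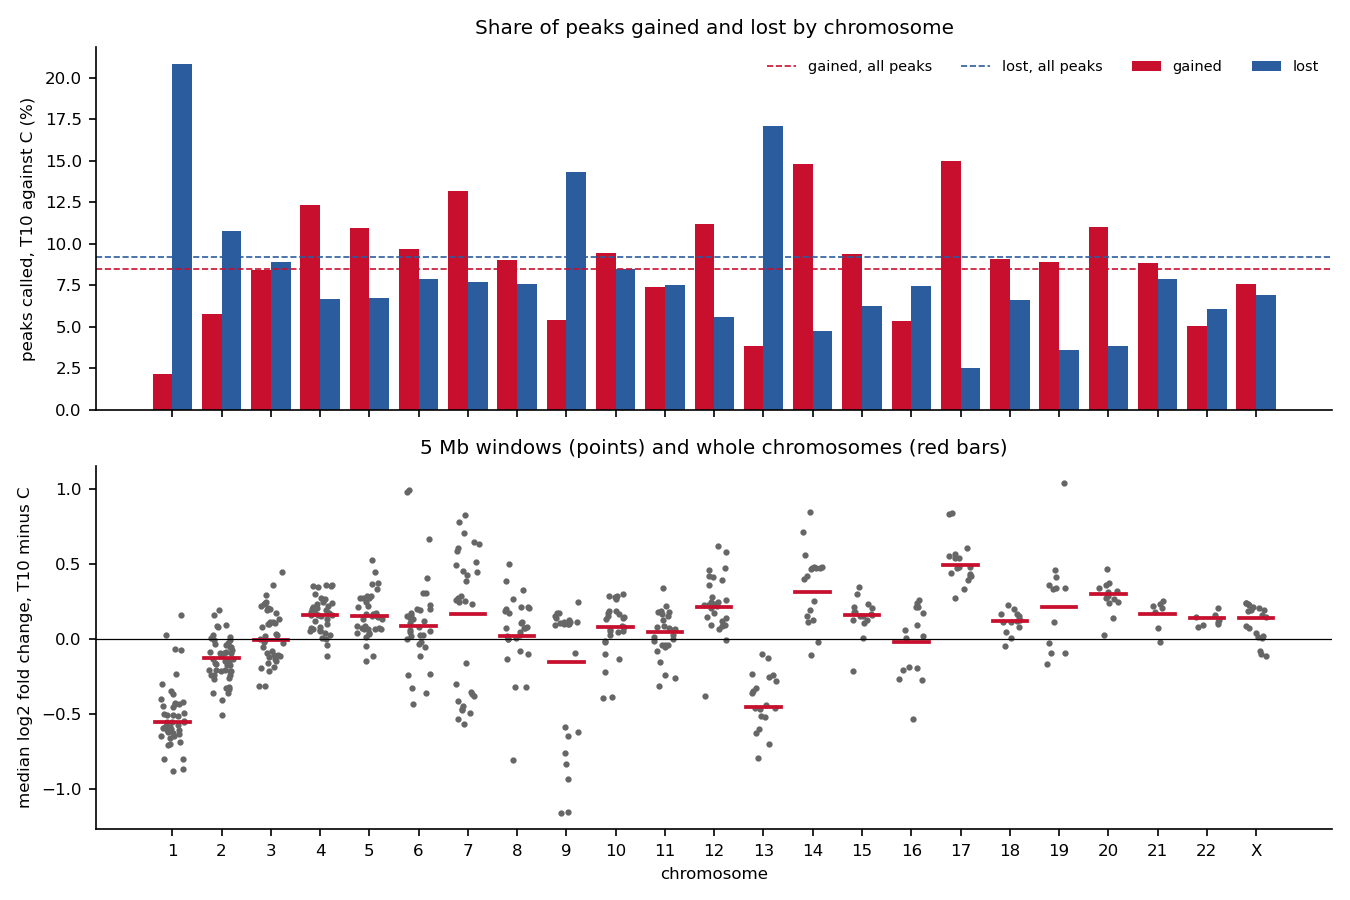
Top, percent of peaks gained (red) and lost (blue) in T10 against C on each chromosome, with dashed lines at the shares over all peaks (8.51% and 9.22%). Bottom, median log2 fold change of each 5 Mb window with at least 30 peaks (points) and of each chromosome (red bars); chromosomes 1 and 13 lie low as a whole, chromosome 17 lies high, and chromosomes 7 and 9 are split.

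Within chromosomes the shifts came in long stretches. Of 561 windows of 5 Mb, 26 had a median of at least 0.5 and 48 a median of at most -0.5. Of the low windows 29 lay on chromosome 1, which has 45 windows, 8 on chromosome 9 and 6 on chromosome 13. Of the high ones 8 lay on chromosome 7 and 7 on chromosome 17. Between 25 and 30 Mb on chromosome 9, 55 of 111 peaks were lost (49.5%), and the summed signal was 994.7 and 1193 CPM in C, 504.2 and 507.4 CPM in T10, and 911 and 871.7 CPM in P10. Between 5 and 10 Mb on chromosome 17, 31.2% of 292 peaks were gained, and the summed signal was 3558 and 4346 CPM in C, 6806 and 7515 CPM in T10, 2760 and 2979 CPM in T5, and 6346 and 7921 CPM in T20. With the window offset 6926 peaks were gained and 8261 lost genome-wide, and 12703 of the 18632 calls were kept in the same direction.

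Some genes had many called peaks in and within 50 kb of them. This count was set up after the data were seen and covered 2954 genes with at least 8 peaks. MOB3B, a kinase-activator gene on chromosome 9, had 19 of 22 peaks lost (median -1.53), and GPR157, an orphan receptor on chromosome 1, 7 of 8. RERE, a nuclear corepressor on chromosome 1, had 20 of 61 lost. CDK14, a cyclin-dependent kinase, SEMA3A, an axon guidance ligand, and IMMP2L, a mitochondrial peptidase, all on chromosome 7, had 21 of 45, 21 of 51 and 18 of 28 peaks gained. CXCL1 had 7 of 8 gained, with a summed signal of 26.2 and 18.3 CPM in C and 52.1 and 60.1 CPM in T10. With the window offset the calls were 4 gained and 0 lost at CXCL1, 6 and 2 at IMMP2L, 3 and 4 at CDK14, 4 and 2 at SEMA3A, 1 and 4 at MOB3B, 2 and 4 at RERE, and 0 and 3 at GPR157. At CDK14 the lost calls then outnumbered the gained ones.

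The same nominal dose was given to P10 for 9 days, so T10 against P10 sets adapted against short-term exposed cells, with the sort as a further difference. T10 was higher at 18746 peaks (17.8%) and lower at 15822 (15.1%), together 32.9% of all peaks. Without T10 replicate 2 the lower peaks numbered 8870. At the representative peaks of genes the balance was the other way, with 797 higher (5.39%) and 1384 lower (9.35%), together 14.7%. P10 itself, against the C libraries that T10 against C also uses, had 9789 peaks gained (9.32%) and 13428 lost (12.8%), together 22.1%.

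The genes most raised in T10 over P10 were low in P10. AMTN read 0.22 and 0.09 CPM in P10 and 2.92 and 6.33 CPM in T10 (4.88 ± 0.62, adjusted p = 1.1e-05). SLC35F1, a solute carrier gene, read 1.54 and 0.65 CPM in P10 and 12.2 and 19.8 CPM in T10 (3.87 ± 0.38, adjusted p = 1.3e-06). RGS4, a brake on G protein signalling, read 1.01 and 1.00 CPM in P10 and 8.60 and 13.3 CPM in T10 (3.45 ± 0.39, adjusted p = 3.6e-06). PTTG1IP2, with little known function, was higher by 4.22 ± 0.45. The genes most lowered were high in P10. SGPP2, a sphingosine-1-phosphate phosphatase, read 34.7 and 29.4 CPM in P10 and 3.498 and 3.362 CPM in T10 (-3.22 ± 0.29, adjusted p = 6.4e-07). PDZK1IP1, a small membrane protein of epithelia, read 41.7 and 46.4 CPM in P10 and 3.498 and 2.385 CPM in T10 (-3.94 ± 0.46, adjusted p = 5.4e-06). EPSTI1 (-3.28 ± 0.65) and LRATD1 (-3.23 ± 0.75) were also lower, and LRATD1 stood at -6.20 without T10 replicate 1, -2.06 without T10 replicate 2 and -1.78 with the trended offset.

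By list, 21 of 40 zinc-finger genes were higher in T10 than in P10 and 0 lower, against 5.39% higher over all genes. Constitutive promoters had 3 of 16 higher and 1 lower, and homologous recombination and PARP genes 3 of 38 higher and 0 lower. Other lists passed 5.39% too. Among them, NRF2 and detoxification had 2 of 21 higher and 2 lower, and endothelial markers 1 of 8 higher and 2 lower. Integrated stress and unfolded protein response had 2 of 22 higher and 1 lower. Lower in T10, against 9.35% over all genes, were 7 of 26 epithelial genes, 5 of 23 TGF-beta and BMP genes, 5 of 27 receptor tyrosine kinase genes, 4 of 20 Mullerian and serous genes, 3 of 7 blood cell markers and 2 of 8 endothelial markers. Further lists also passed that share, among them NF-kB (3 of 20), YAP and TEAD targets (3 of 19), ABC transporters (2 of 13), Wnt and stemness (3 of 22) and cell cycle (4 of 34). Of the genes above, EHF (-2.02 ± 0.34), MSLN (-1.41 ± 0.24), CDKN2A (-1.55 ± 0.36) and CD24 (-1.16 ± 0.21) were lower in T10, and RCOR2 (2.56 ± 0.22), TLR4 (1.63 ± 0.29) and COL1A1 (1.17 ± 0.18) were higher. With the window offset MSLN (-0.79), CDKN2A (-0.70) and COL1A1 (0.81) were not called, nor was CD24 without T10 replicate 2 (-0.99). GAS6 was lower by 2.52 ± 0.35 on the log2 scale, with P10 at 14.02 and 8.849 CPM, and at -1.46 with the window offset it was still called. CXCL1 (-0.04 ± 0.20, adjusted p = 0.89) and ERN1 (0.01 ± 0.20, adjusted p = 0.97) were not called between T10 and P10.

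**Figure D5:**
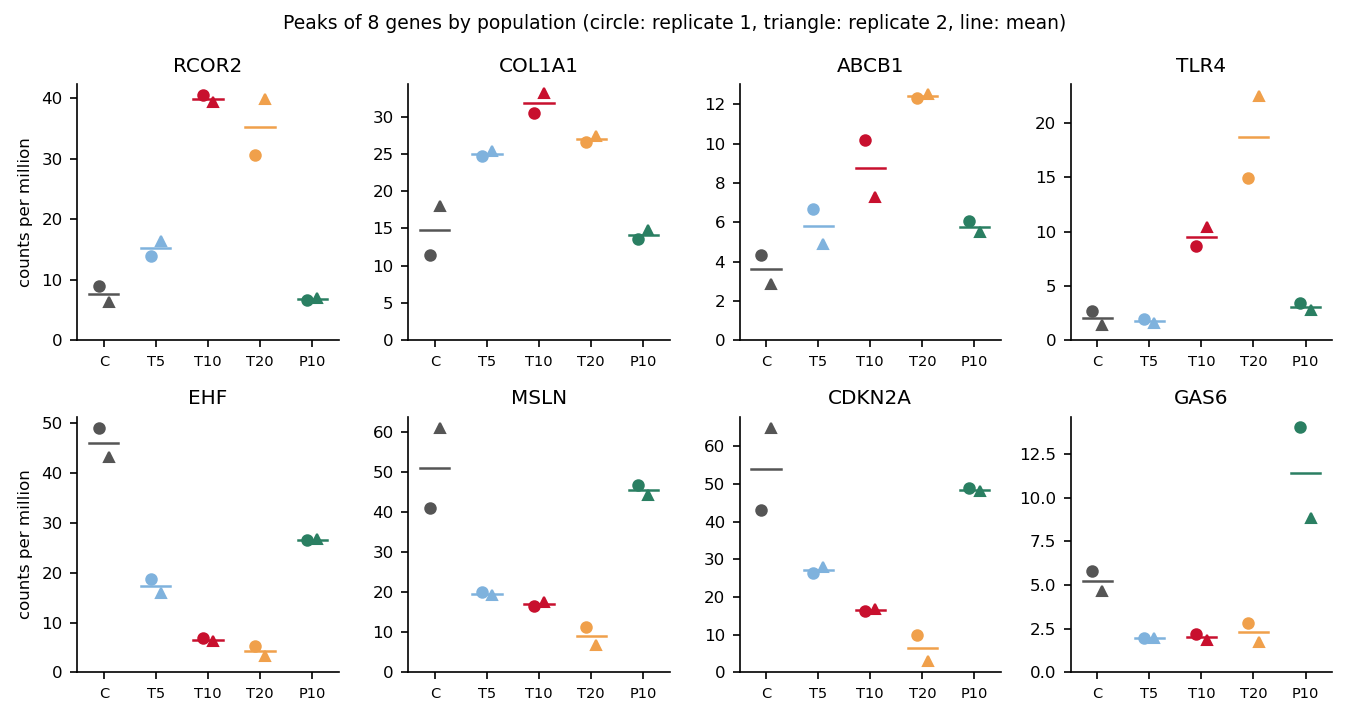
CPM in the peaks of 8 genes (vertical axis from 0, scale set per gene) in C, T5, T10, T20 and P10, with 1 point per library and a line at the mean of 2. RCOR2 and TLR4 are higher in T10 and T20 than in T5, P10 and C; EHF, MSLN and CDKN2A are low in T10 and T20, with P10 above all T libraries; GAS6 is low in T5, T10 and T20 and highest in P10.

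The neighbouring lower step, T5, differed from T10 at fewer peaks. T10 was higher at 2264 peaks (2.16%) and lower at 1259 (1.2%), together 3.35%. With the replicate number as a block the numbers were 3209 and 2589. The share of calls that were higher was 64.3%, and 39.1% with scaling from start-site peaks alone. Without T5 replicate 2 the calls numbered 323 and 89, without T5 replicate 1 1336 and 674, without T10 replicate 2 561 and 145, and without T10 replicate 1 the lower ones 713. At representative peaks 309 genes were higher (2.09%) and 31 lower (0.209%), together 2.3%. Start-site peaks held 27.1% and 28.1% of the counts in T5 and 30.1% and 31.1% in T10. The gene numbers with start-site scaling are not given here, so this balance cannot be told apart from that difference.

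BCHE, butyrylcholinesterase, had the largest rise from T5 to T10. It read 1.89 and 1.04 CPM in C, 1.01 in both T5 libraries, 5.32 and 9.27 CPM in T10, and 5.743 and 7.996 CPM in T20 (chr3:165837039-165837903; 2.87 ± 0.43 for T10 minus T5, adjusted p = 0.0010). TLR4 rose by 2.46 ± 0.31 (adjusted p = 4.1e-04), from 1.96 and 1.56 CPM in T5. FUT1, a fucosyltransferase of blood group antigens, rose by 2.25 ± 0.35 (adjusted p = 0.0013). RCOR2 (1.39 ± 0.21) and KDM6B (1.54 ± 0.21) were higher in T10 too, and with the window offset KDM6B stood at 0.25 and was not called. TENM1 was lower in T10 by 2.19 ± 0.34 (adjusted p = 0.0012), and EHF by 1.40 ± 0.34 (adjusted p = 0.021). The EHF call was lost without any 1 of the 4 libraries, at -1.47 and -1.32 without T10 replicates 1 and 2 and at -1.281 and -1.501 without T5 replicates 1 and 2, and with the window offset (-1.25).

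Other calls between T5 and T10 were less firm. LIPK, a lipase gene (2.35 ± 0.57), EPSTI1 (-2.94 ± 0.65), DTHD1 (-2.35 ± 0.58) and LAMA2, a laminin chain (-1.97 ± 0.52), lost their calls when single libraries were left out. LIPK stood at 1.75 without T10 replicate 2 and at 2.65 and 2.05 without T5 replicates 1 and 2, EPSTI1 at -2.11, -2.78 and -3.08, and LAMA2 at -1.27, -2.10 and -1.80. DTHD1 stood at -2.18 and -2.65 without T10 replicates 1 and 2 and at -2.36 and -2.34 without T5 replicates 1 and 2. DESeq2 gave no adjusted p for DTHD1 (-2.40). LAMA2 was not called with total-count scaling (-2.01) or the window offset (-1.89), nor LIPK with start-site scaling (2.14).

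The BCHE start is shown as the promoter with the largest T5-to-T10 rise. Its 250 bases before the start (chr3:165837424-165837673, minus strand, RefSeq, GRCh38.p14) hold 1 AP-1 match to TGANTCA, in capitals.
BCHE: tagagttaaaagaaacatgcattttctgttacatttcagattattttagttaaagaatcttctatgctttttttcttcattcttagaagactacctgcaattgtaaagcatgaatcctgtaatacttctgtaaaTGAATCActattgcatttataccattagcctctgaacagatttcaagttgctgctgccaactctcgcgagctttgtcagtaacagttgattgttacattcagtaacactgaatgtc

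T20 differed little from T10 by this test. T20 was higher at 46 peaks (0.0438%) and lower at 524 (0.499%), together 0.543%, and 13116 peaks (12.5%) had an unadjusted p under 0.05. With the replicate block the numbers were 322 and 1388, and with DESeq2 226 and 926. Without T20 replicate 2 the calls numbered 0 and 2, without T10 replicate 2 1 and 11, and without T10 replicate 1 3 and 126. At representative peaks 8 genes were higher (0.0541%) and 23 lower (0.155%).

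ADPRHL1, an ADP-ribosylhydrolase-like gene of the heart (chr13:113448524-113450060), had the largest fall from T10 to T20, from 6.70 and 6.22 CPM to 1.33 and 1.16 CPM (-2.38 ± 0.39, adjusted p = 0.010). It was not called without T10 replicate 2 (-2.44) or T20 replicate 2 (-2.27). CDKN2B fell further, to 6.08 and 2.43 CPM in T20 (-1.99 ± 0.39, adjusted p = 0.027), and was not called without T10 replicate 1 (-2.04), T10 replicate 2 (-1.92) or T20 replicate 2 (-1.42). CIB4, a calcium-binding protein (-1.92 ± 0.37), and FAM133A (-1.84 ± 0.40) were also lower in T20. Higher in T20 were RIPPLY2, a repressor of somite formation (1.28 ± 0.25), ZNF793 (1.23 ± 0.25), PCDHB3, a protocadherin (1.201 ± 0.27), and C6orf118 (1.10 ± 0.22). The window offset ended the calls of CIB4 (-1.37), FAM133A (-1.48), RIPPLY2 (0.89), PCDHB3 (1.09) and C6orf118 (0.74). Without any 1 of the 4 libraries RIPPLY2 (1.057 to 1.504), ZNF793 (1.05 to 1.40), PCDHB3 (1.07 to 1.33) and FAM133A (-2.02 to -1.66) lost their calls. CIB4 (-2.10 to -1.43) and C6orf118 (0.80 to 1.27) lost theirs without T10 replicate 1, T10 replicate 2 or T20 replicate 2. None of the 8 largest rises in T10 against C was called between T10 and T20, with ZNF66 at 0.55 ± 0.24 and RCOR2 at -0.18 ± 0.20.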

How the data were processed

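ATAC-seq libraries of Kuramochi cells were analysed from a table of read counts per consensus peak, deposited by the authors. Per the submitters' processing notes, the build was GRCh38 and the tools were MACS2, Bowtie2, Trim Galore, SAMtools, Picard, DESeq2, deepTools 3.1 and 3.5.1, and HOMER 4.1. Whether the counts are of reads or fragments is not given in the sources used here. Peak coordinates are printed as the deposited table gives them.

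The 20 libraries were fitted together with edgeR 4.0.16 (TMM scaling, quasi-likelihood test, limma 3.58.1, R 4.3.3), with Benjamini-Hochberg adjustment over 105048 peaks. The low-count filter removed 0 peaks. A call needs a log2 fold change of 1 or more in size with an adjusted p under 0.05. CPM are scaled to each library's total in peaks multiplied by its TMM factor. That factor was 1.07 and 0.955 in the C libraries and 1.04 and 0.965 in the T10 libraries. Total counts per library ran from 9627970 to 29699950. The fit shares its estimate of spread between groups, but replicate spread differed. As mean squared deviation over the binomial expectation, it ran from 2.115 in P10 to 8.555 in C, with T10 at 6.06. On simulated data with 200 changed peaks of 105048, T10 against C recovered 51% of changes of 1.5 and 73% of changes of 2 (log2), with 11 false calls. The changed peaks were drawn above a minimum mean count, and the simulated libraries were not paired. The real comparison called 17.7% of peaks, so these rates need not carry over to it. Promoters (250 bases before to 50 after a start) are RefSeq, GRCh38.p14, read with Python 3.11.15, pandas 2.3.3 and Biopython 1.88. Genes were taken by the strongest peak within 1 kb of a listed start, else of a gene end.

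Named were the 8 largest rises and falls in T10 against C among called genes whose higher group averaged 2 CPM or more and whose libraries did not overlap, the 2 called members of smallest adjusted p per list, certain preset genes, and 4 gained and 4 lost distal peaks of smallest p. In each other comparison the 4 largest rises and falls were named. List members named as not called, and further called members of a list, were chosen after their values were seen. Some members are not reported here. Members and lists were chosen with earlier results of these data known.

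Same-numbered libraries of the sorted groups deviated together (28 pairs of groups, r from 0.174 to 0.587). The main fit, which gave the printed standard errors, p-values and calls, did not take this pairing into account. The replicate number entered as a block in alternative fits alone. P10 and 320 uM short-term libraries did not pair (17 pairs, -0.0955 to -0.000317). Alternatives were total-count scaling, TMM from start-site peaks, a trended offset, an offset per 5 Mb window, the replicate block, other filters, the compared groups alone, DESeq2 1.42.0, no fold minimum and leaving out each library. The block within sorted populations alone and the window offset with the block were chosen after seeing the data.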

Additional observations from a re-analysis of the deposited data

Results flagged for a closer look

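Among the named genes, 7 were called in T10 against C and in P10 against C in opposite directions. They were also called in T10 minus P10 in the same edgeR fit, which opposite calls against the same C nearly fix in advance. PTTG1IP2, SLC35F1, RGS4, PDZK1IP1 and SGPP2 were named for their size in T10 against P10, so that call is not separate evidence. The share of all genes with opposite calls is not given here. AMTN was higher in T10 than in P10 by 4.88 (log2), PTTG1IP2 by 4.22, SLC35F1 by 3.87 and RGS4 by 3.45. T10 was lower than P10 in PDZK1IP1 (-3.94), SGPP2 (-3.22) and GAS6 (-2.52). Against C, PTTG1IP2 stood at 2.36 in T10 and -1.86 in P10, SLC35F1 at 1.92 and -1.95, RGS4 at 1.66 and -1.78, PDZK1IP1 at -2.27 and 1.66, and SGPP2 at -1.16 and 2.06. Both sets of values share the C libraries. In other named genes, among them LRRC70, EPSTI1, UGT1A6 and EMCN, the T10 and P10 libraries also lay on opposite sides of C, without a call in P10 against C. The T10 against C call was lost for SGPP2 without C replicate 1 (-0.65) or T10 replicate 2 (-1.13), for RGS4 without C replicate 2 (1.17), and for GAS6 without T10 replicate 2 (-1.25) and with the window offset (-0.58). PTTG1IP2 stood at 1.52 with the window offset, still called.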

How the results depend on the processing

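In T10 against C, 8944 peaks gained became 13856 with no fold minimum, and leaving out single libraries gave 5003 to 10236 gained and 5002 to 9241 lost. Start-site scaling moved the median of all peaks from 0.02 to -0.10. The compared groups alone gave 6897 gained and 8823 lost, and 15233 of the 18632 calls were kept in the same direction. In T10 against P10 single libraries left out gave 13929 to 20167 higher and 8870 to 17183 lower. In T10 against T5 they gave 323 to 1912 higher and 89 to 713 lower. There 2264 higher peaks became 1336 with start-site scaling and 1285 with the window offset, and 1259 lower peaks became 2081 with start-site scaling, 2589 with the replicate block, 3028 with the block in sorted populations alone, 1901 with window offset and block, 2035 in the compared groups alone and 2002 with DESeq2. In T20 against T10 leaving out libraries gave 0 to 54 higher and 2 to 466 lower. There 46 higher peaks became 150 with the trended offset, 15 with the window offset, 322 with the replicate block, 444 in sorted populations alone, 177 with both and 226 with DESeq2, and 524 lower peaks became 168, 1388, 1378, 811 and 926 with the window offset, the block, the block in sorted populations alone, both and DESeq2. Of list genes, 37 gained became 13 with the window offset, 14 with window offset and block, 77 with no fold minimum and 26 to 52 without single libraries. The 10 lost became 31 with no fold minimum and 8 to 14 without single libraries. Over 68 named values, 974 alternatives kept direction and call, 107 kept direction and lost the call, 1 gained a call (CD24 with no fold minimum) and 0 reversed. The replicate block changed no other call among the 68. The cause of these changes was not tested.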
